A study of Mus musculus with 6 samples.

Results

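The mitochondrial ribosomal protein genes are the nuclear genes that encode the protein part of the mitochondrial ribosome. They were taken as every row of the deposited table whose Ensembl identifier maps to a protein-coding mouse symbol starting with Mrpl or Mrps followed by a digit, which gave 77 members (48 Mrpl and 29 Mrps) of 23504 genes. Of these, 76 had a mean of at least 1 FPKM (fragments scaled by exon length and by the fragments of the library) over all libraries and were tested, and Mrpl33 lay under that filter. RNA was sequenced from bone marrow–derived macrophages (BMMs) of C57BL/6 mice, which the study took from males of 6 to 8 weeks, after 3 days with DASA-58, an activator of pyruvate kinase M2 (PKM2), or with DMSO, the solvent. There were 3 libraries in each group. The labels name the compound DASA-58, while the design text writes DASA-48. The study's results section describes RANKL, the cytokine that drives macrophages towards osteoclasts, as given to both groups, while the design text names it for the compound group and mentions DMSO alone for the control group. No dose for these libraries was found. The study's figure legends speak of independent replicates, while its sequencing section gives only 3 replicates in each group. Whether these came from separate mice or cultures is not said, so p-values measure the spread between these libraries, which may be technical.

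The mitochondrial ribosome translates the mRNAs of the mitochondrial genome, which encode core subunits of the respiratory chain and ATP synthase. Its rRNAs come from the mitochondrial genome, whereas all of its proteins are made in the cytosol and imported. The small subunit binds the mRNA and decodes it, and the large subunit joins the amino acids and passes the new protein to the inner membrane. Many of the proteins have bacterial relatives and others were added in the mitochondrial lineage. Osteoclasts are rich in mitochondria.

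The table held 18209396 to 18853041 fragments per DMSO library and 18191560 to 18968556 per DASA-58 library. A member had 60 to 1611 fragments in a library, with a median of 694.5. A count of 0 allows 3 fragments, or 0.158 to 0.165 FPKM on a gene of 1000 bases, and such limits cover counting error only. Pkm, the gene of the enzyme that DASA-58 activates, had 575 ± 9.70 FPKM with DMSO and 575 ± 6.09 with DASA-58 (SD, n = 3). The BMM label was checked against 8 macrophage markers, all of which were tested. Their summed level was 16412 to 17255 FPKM with DMSO and 17342 to 19651 with DASA-58. The median marker was at 222 FPKM with DMSO and 223 with DASA-58, so the sum rests mostly on the most abundant of them.

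Mitochondrial ribosomal protein mRNAs had slightly lower levels in the DASA-58 group, and few of the single differences passed the test. Of the 76 members tested, 5 fell and 0 rose at an adjusted p under 0.05 (limma on log2(FPKM + 1), adjusted over 10965 genes). The 5 make 6.58%, where 7.28% of all genes tested fell and 4.24% rose, so the share of falling members was near the background. The members that fell were Mrps6, Mrpl12, Mrpl37, Mrps5 and Mrpl1. The log2 fold change was below 0 for 72 of 76 members, or 94.7%, against 59.8% of all genes tested, and its median was -0.10 against -0.03. Median centring and quantile normalization left 63 and 64 members below 0 and a median of -0.08 and -0.07, with a median of all genes near 0 (-0.00078 and -0.0014). Under median centring the calls over all genes split into 504 lower and 597 higher, and under quantile normalization into 588 and 600, where the fit reported here had 798 and 465.

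Added over the 77 members, the level was 1519, 1604 and 1528 FPKM in DMSO libraries 1 to 3 and 1406, 1463 and 1452 FPKM in DASA-58 libraries 1 to 3. Every DASA-58 library lay below every DMSO library. The mean sum was 1551 ± 46.6 FPKM with DMSO and 1440 ± 30.04 with DASA-58 (SD, n = 3), which is 92.9% of the DMSO level. As a share of all FPKM in a library, the members made 0.433%, 0.449% and 0.436% with DMSO and 0.397%, 0.411% and 0.401% with DASA-58. With bulk RNA, fewer cells of a type and less RNA per cell cannot be told apart.

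**Figure D1:**
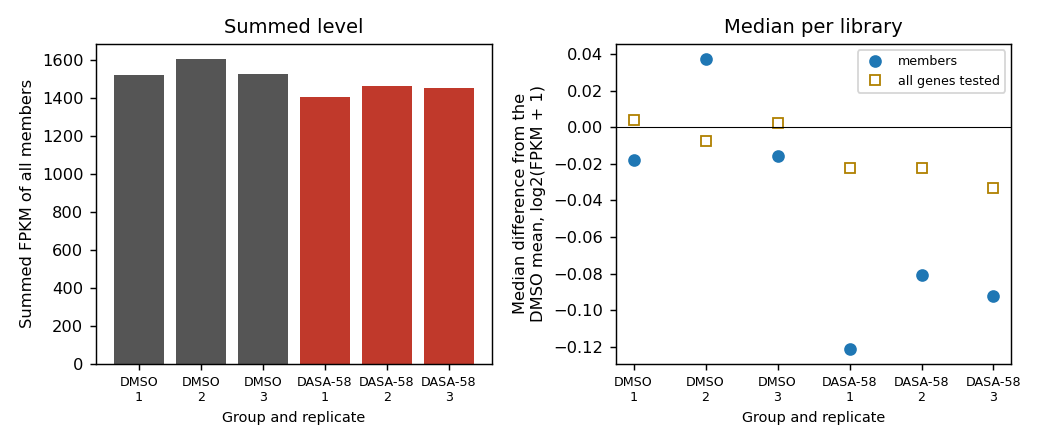
Left, summed FPKM of the 77 members in each of the 6 libraries; right, the median over the tested members of the log2(FPKM + 1) difference from the DMSO mean, with squares for the median over all genes tested. In the right panel the members lie between -0.02 and 0.04 in the DMSO libraries and between -0.12 and -0.08 in the DASA-58 libraries, while all genes lie between -0.03 and 0.00.

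Most differences were small. The log2 fold change was within 0.2 of 0 for 71 members and within 0.3 for 75, and the median standard error was 0.05. The 95% interval lay inside 0.3 on both sides of 0 for 62 members and inside 0.5 for 75. Without Mrps6, the lowest log2 fold change of a member was -0.25 and the median of the other 75 was again -0.10. The DASA-58 libraries all lay below the DMSO libraries for 34 members, or overlapped them for 42, and lay above them for 0, where 21.6% of all genes tested had all DASA-58 libraries below and 11.8% had them above. At an unadjusted p under 0.05, 31 members were lower and 0 higher, against 18.0% and 9.83% of all genes tested. An exact two-sided permutation test of 3 against 3 libraries cannot go under 0.1, so it separates none of these members.

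**Figure D2:**
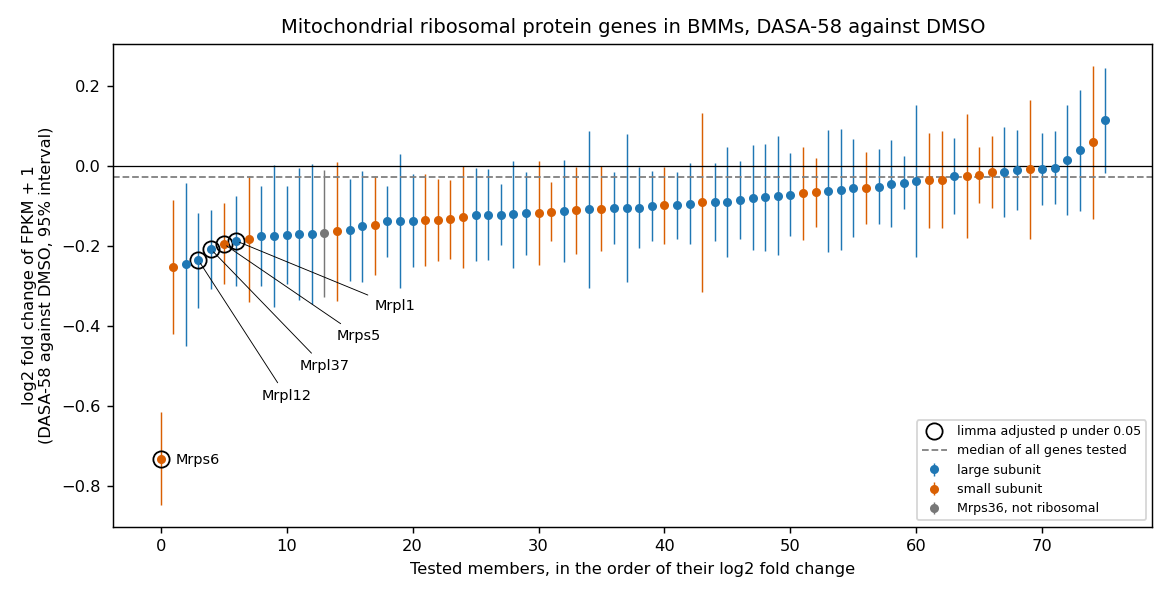
log2 fold change of FPKM + 1 (DASA-58 against DMSO) of the 76 tested members in rising order, with 95% intervals, coloured by subunit and with the 5 members at a limma adjusted p under 0.05 ringed. Mrps6 stands alone at -0.73, the other members lie between -0.25 and 0.11, and the median of all genes tested (-0.03) is dashed.

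Mrps6 encodes the relative of bacterial S6, a protein on the platform of the small subunit. The gene (ENSMUSG00000039680) spans chr16:92058270-92112227 on the plus strand of GRCm38. It was measured at 19.9, 19.6 and 21.7 FPKM with DMSO and at 11.3, 12.2 and 12.3 FPKM with DASA-58. The groups were far apart, with the lowest DMSO library well above the highest DASA-58 library. The mean fell from 20.4 ± 1.11 to 11.9 ± 0.532 FPKM (SD, n = 3), or to 58.3% of the DMSO level. Each DMSO library held 385 to 416 of its fragments and each DASA-58 library 224 to 245. The log2 fold change was -0.73 (SE 0.05, 95% interval -0.85 to -0.61, limma adjusted p = 2.0e-04), which placed it 32 from the lowest of the 10965 genes tested. It was called under all 17 alternative settings, with a log2 fold change between -0.78 and -0.59 and an adjusted p between 6.2e-08 and 0.020.

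Mrps6 shares its start with Slc5a3, the gene of a sodium and myo-inositol cotransporter that takes up the osmolyte inositol. Slc5a3 lies on the same strand (chr16:92058322-92087473), its RefSeq start is 14 bases from that of Mrps6, and 159 of the 1533 annotated exon bases of Mrps6, or 10.4%, are also exon of Slc5a3. Slc5a3 was at 3.69, 3.02 and 4.21 FPKM with DMSO and at 2.33, 1.76 and 1.995 FPKM with DASA-58, again with no overlap. It fell to 55.7% of the DMSO level, by 0.61 on the log2 scale (SE 0.11, limma adjusted p = 0.012), and it lost the call with no filter on low values (adjusted p = 0.066) and with no variance shrinkage (0.096), and with no other setting in which it was tested. A further gene model, Gm49711, shares 305 exon bases with Mrps6 and was not analysed here. How fragments on shared exons were assigned is not given in the sources used here, so the separate levels of Mrps6 and Slc5a3 are uncertain to that extent, and the fragments of Mrps6 fitted an exon length of 1053 bases rather than 1533.

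The 100 bases before the annotated start of Mrps6 are shown because the promoter is shared by 2 genes that both fell. Those before Mrpl12 and Mrpl37, the members with the next lowest log2 fold changes among the 5, are set beside it. They were taken from RefSeq promoter windows on GRCm38.p6, are written 5′ to 3′ on the strand of the gene, and carry in capitals any of the searched motifs that are described further on.
Mrps6 (chr16:92058170-92058269, plus strand): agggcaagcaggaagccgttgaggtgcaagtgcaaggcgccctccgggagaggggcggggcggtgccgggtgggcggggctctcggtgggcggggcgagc
Mrpl12 (chr11:120484513-120484612, plus strand): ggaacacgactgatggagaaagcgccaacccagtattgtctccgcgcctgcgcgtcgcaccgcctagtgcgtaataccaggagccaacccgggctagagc
Mrpl37 (chr4:107066869-107066968, minus strand): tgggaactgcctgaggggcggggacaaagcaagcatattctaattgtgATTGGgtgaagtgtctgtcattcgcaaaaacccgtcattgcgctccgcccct
The capitals in Mrpl37 are a CCAAT box read on the other strand, and the stretches of Mrps6 and Mrpl12 hold none of the motifs searched.

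In the small subunit, Mrps5 also fell. Mrps5 encodes the relative of bacterial S5, which lies near the path by which mRNA enters the ribosome (ENSMUSG00000027374, chr2:127587222-127606829). It was at 8.28, 7.92 and 7.85 FPKM with DMSO and at 6.61, 6.94 and 7.08 FPKM with DASA-58. The groups did not overlap, and the mean went to 85.9% of the DMSO level (log2 fold change -0.19, SE 0.04, limma adjusted p = 0.029).

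Of the large subunit, Mrpl12, Mrpl37 and Mrpl1 fell. Mrpl12 forms the flexible stalk that recruits translation factors, and it has also been described as a partner of the mitochondrial RNA polymerase. It was at 20.8, 21.8 and 20.0 FPKM with DMSO and at 16.4, 18.01 and 18.3 FPKM with DASA-58, and the mean went to 84.3% (log2 fold change -0.24, SE 0.05, limma adjusted p = 0.025). Mrpl37 belongs to the proteins without a bacterial relative. It was at 15.3, 15.9 and 15.1 FPKM with DMSO and at 13.5, 13.6 and 12.5 FPKM with DASA-58, and the mean went to 85.7% (log2 fold change -0.21, SE 0.04, limma adjusted p = 0.020). Mrpl1 is the relative of bacterial L1, the protein of the mobile stalk over which used tRNA leaves. It was at 7.08, 7.22 and 6.94 FPKM with DMSO and at 5.94, 6.50 and 5.88 FPKM with DASA-58, and the mean went to 86.2% (log2 fold change -0.19, SE 0.05, limma adjusted p = 0.046). In none of the 3 genes did the groups overlap.

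These 4 smaller calls depended on the fit. Of 17 alternative settings, Mrpl37 was called in 12, Mrpl12 in 9, Mrps5 in 7 and Mrpl1 in 6, always in the same direction, and their highest adjusted p was 0.079, 0.12, 0.095 and 0.14. Without DMSO replicate 1 all 4 were lost (adjusted p = 0.059 to 0.12) and Mrpl10, Mrpl38, Mrpl46 and Mrpl47 were called instead. Without DMSO replicate 2 all 4 were lost as well (0.057 to 0.11), and Mrps6 was the 1 member called. Without DMSO replicate 3, Mrps5 and Mrpl1 were lost (adjusted p = 0.052 and 0.080) and Mrps34 was gained. Without DASA-58 replicate 1, Mrpl12, Mrps5 and Mrpl1 were lost (0.063, 0.092 and 0.13) and Mrpl41 was gained. Without DASA-58 replicate 2, Mrpl12 and Mrps5 were lost (0.053 and 0.073), and without DASA-58 replicate 3, Mrpl37, Mrps5 and Mrpl1 (0.064, 0.059 and 0.14). The members nearest to the threshold from outside were Mrpl50 (adjusted p = 0.054), Mrpl18 (0.056), Mrps7 (0.061) and Mrps34 (0.064).

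**Figure D3:**
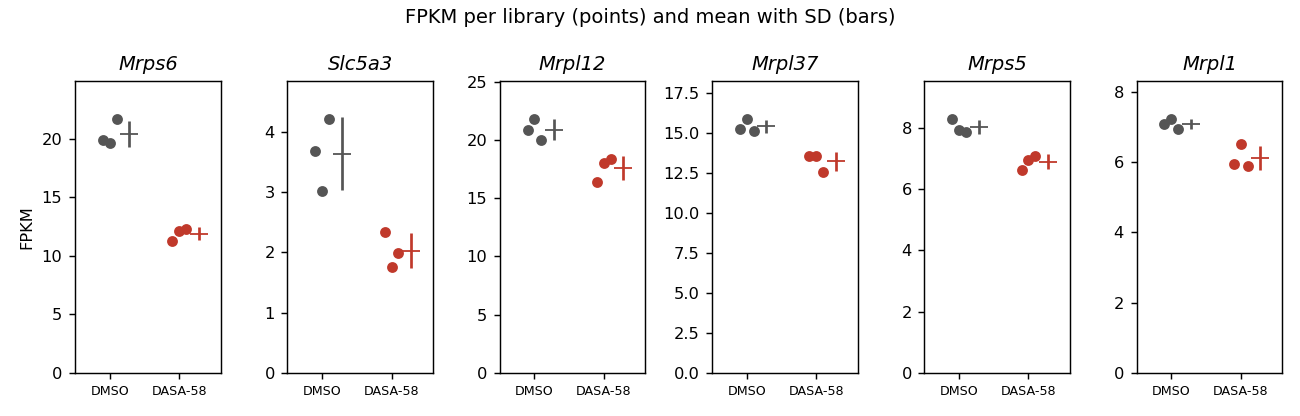
FPKM in each of the 6 libraries for the 5 members at a limma adjusted p under 0.05 and for Slc5a3, the neighbour of Mrps6, with the mean of each group and its SD (n = 3). In each panel the 3 DASA-58 libraries lie below the 3 DMSO libraries, and among the members the drop is largest in Mrps6, to 58.3% of the DMSO mean.

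The medians lay close together across the parts of the ribosome, with no test of the differences between them. Of the 49 tested members of the large subunit, 3 fell, with a median log2 fold change of -0.10, and of the 26 of the small subunit 2 fell, with a median of -0.11. Of 45 members classed as bacterial in ancestry 4 fell and of 30 classed as mitochondrial 1 fell, with a median of -0.10 in each class. Of the 38 members above the median level 2 fell, with a median of -0.11, and of the 38 tested at or below it 3 fell, with a median of -0.09.

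Around the factor-binding stalk, Mrpl10 and Mrpl11, which hold Mrpl12 at its base, had log2 fold changes of -0.12 (limma adjusted p = 0.22) and -0.08 (0.42) and were not called. Near the exit for the new protein, Mrpl45, which anchors the ribosome to the inner membrane, was at -0.09 (0.22). Mrpl44, with the fold of a ribonuclease, was at -0.09 (0.21), Mrpl41 at -0.11 (0.23), and Mrpl58, a peptidyl-tRNA hydrolase that became a ribosomal protein, at -0.06 (0.59). In the decoding centre, Mrps12, the relative of the bacterial protein in which streptomycin resistance arises, was at -0.13 (0.095).

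The 3 Mrps18 genes encode paralogs that sit at different places in the ribosome. Mrps18a, which sits in the large subunit in spite of its symbol, had a log2 fold change of -0.16 (limma adjusted p = 0.11), Mrps18b of -0.09 (0.60) and Mrps18c of -0.01 (0.96). Mrps18c had only 60 to 77 fragments in a library, the fewest of any member. Mrps36 is now known as a part of the 2-oxoglutarate dehydrogenase complex rather than of the ribosome, and it was at -0.17 (0.16).

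The levels of the members in FPKM covered a wide range. Mrpl34, the relative of bacterial L34, was the highest with 65.6 ± 3.29 FPKM in DMSO and 63.2 ± 1.29 in DASA-58 (SD, n = 3). Mrps21 was the highest of the small subunit with 51.9 and 51.1 FPKM, and Mrps35 the lowest with 3.35 and 2.84. Mrps30, which also sits in the large subunit, was the lowest member tested with 2.85 and 2.96 FPKM. Mrpl33 had 0.878, 0.825 and 1.004 FPKM with DMSO and 0.913, 0.998 and 0.950 with DASA-58, so its groups overlapped. Its 114 to 134 fragments were divided by an exon length of 7326 bases, which lowers its FPKM. The order of the other members by FPKM also depends on exon length. Mrps35 (8631 bases) had 430 to 552 fragments in a library, where Mrps18c (1076 bases) had 60 to 77. Mrpl34 (607 bases) had 684 to 785, where Mrpl51 (4043 bases) had 1419 to 1611.

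The 4 members with a log2 fold change above 0 were Mrpl42 at 0.11 (limma adjusted p = 0.23), Mrps31 at 0.06 (0.69), Mrps30 at 0.04 (0.74) and Mrpl23 at 0.01 (0.90). Mrpl42 was at 19.3, 21.1 and 18.8 FPKM with DMSO and at 20.0, 21.9 and 22.4 with DASA-58, and the groups overlapped.

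Other parts of mitochondrial translation were described from the same fit, in which 7.28% of all genes tested fell and 4.24% rose. Of 5 mitoribosomal proteins with symbols of another kind, 1 fell, with a median log2 fold change of -0.06. It was Gadd45gip1, a protein of the large subunit, with 5.51, 5.49 and 4.62 FPKM in DMSO and 3.90, 4.30 and 3.45 in DASA-58 (log2 fold change -0.35, SE 0.08, limma adjusted p = 0.036). The call was lost without DMSO replicate 1 or 2 (0.11 and 0.097) and without DASA-58 replicate 1 or 3 (0.093 and 0.10), and its adjusted p reached 0.15 with no variance shrinkage. It was also lost with no filter on low values (0.13), median centring (0.0503), quantile normalization (0.052) and no trend in the variance (0.058). Of 15 translation factors tested 1 fell, with a median of -0.10. It was Tufm, the elongation factor that brings aminoacyl-tRNA to the ribosome, with 52.8, 54.6 and 50.4 FPKM in DMSO and 45.3, 45.8 and 45.9 in DASA-58 (log2 fold change -0.20, SE 0.03, limma adjusted p = 0.011). Tufm lost the call with no variance shrinkage (0.061), and in the other alternatives its adjusted p lay between 6.5e-04 and 0.043. Of 24 assembly factors, which fold, modify and cleave the rRNA and join the proteins, 0 were called by limma, with 23 below 0 and a median of -0.08, and 4 were lower at an unadjusted p under 0.05.

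Of 20 mitochondrial aminoacyl-tRNA synthetases, which load the tRNAs, 1 fell, with a median of -0.05. It was Yars2, the tyrosyl-tRNA synthetase, which went from 5.73 ± 0.273 to 4.48 ± 0.0983 FPKM (SD, n = 3; log2 fold change -0.30, limma adjusted p = 0.0091). The rRNAs of the ribosome itself, mt-Rnr1 and mt-Rnr2, had log2 fold changes of -0.09 (0.35) and -0.06 (0.27). Their levels with DMSO, 116 and 115 FPKM, lay under the median of 597 FPKM of the mitochondrial mRNAs. The study's text names no step that selects or depletes rRNA, so how far these values follow the amount of rRNA is not known. Of the 12 mRNAs of the mitochondrial genome that were tested, 0 fell and 1 rose, with 6 below 0, a median of 0.00, and 2 lower and 2 higher at an unadjusted p under 0.05. The 1 was mt-Atp6, a subunit of ATP synthase, at 9.12, 10.2 and 10.1 FPKM with DMSO and 16.2, 16.6 and 14.4 with DASA-58 (log2 fold change 0.63, SE 0.06, limma adjusted p = 0.0011). That level was far under the median of 597 FPKM for these mRNAs, and mt-Atp6 overlaps mt-Atp8, so its level is uncertain.

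Of 11 regulators of mitochondrial transcription and biogenesis, 3 fell and 0 rose, with a median of -0.10. Myc, a transcription factor of cell growth, was at 27.4, 27.4 and 24.3 FPKM with DMSO and at 16.0, 18.4 and 16.1 with DASA-58 (log2 fold change -0.62, SE 0.07, limma adjusted p = 0.0012). Pprc1 and Ppargc1b, both of the PGC-1 family of coactivators, had log2 fold changes of -0.25 (0.012) and -0.33 (0.018). Ppargc1b lost the call without DMSO replicate 1 or 2 (0.059 and 0.056) and without DASA-58 replicate 2 or 3 (0.061 and 0.066), and its adjusted p reached 0.071 with no filter on low values. With no variance shrinkage it was lost as well (0.0501).

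Of the cytosolic ribosomal proteins, 26 of 86 tested fell and 0 rose, and of the nuclear subunits of the respiratory chain and ATP synthase 18 of 77 fell and 0 rose. At an unadjusted p under 0.05, 65 and 44 of them were lower and 0 higher. Their median log2 fold changes were -0.11 and -0.12, close to the -0.10 of the mitochondrial ribosomal proteins. Their levels were higher, with a median of 251 and 57.3 FPKM in DMSO against 16.6, and their median standard errors lower, at 0.037 and 0.045 against 0.051. The share of genes called was 30.2%, 23.4% and 6.58%, and the difference between the lists was not tested.

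**Figure D4:**
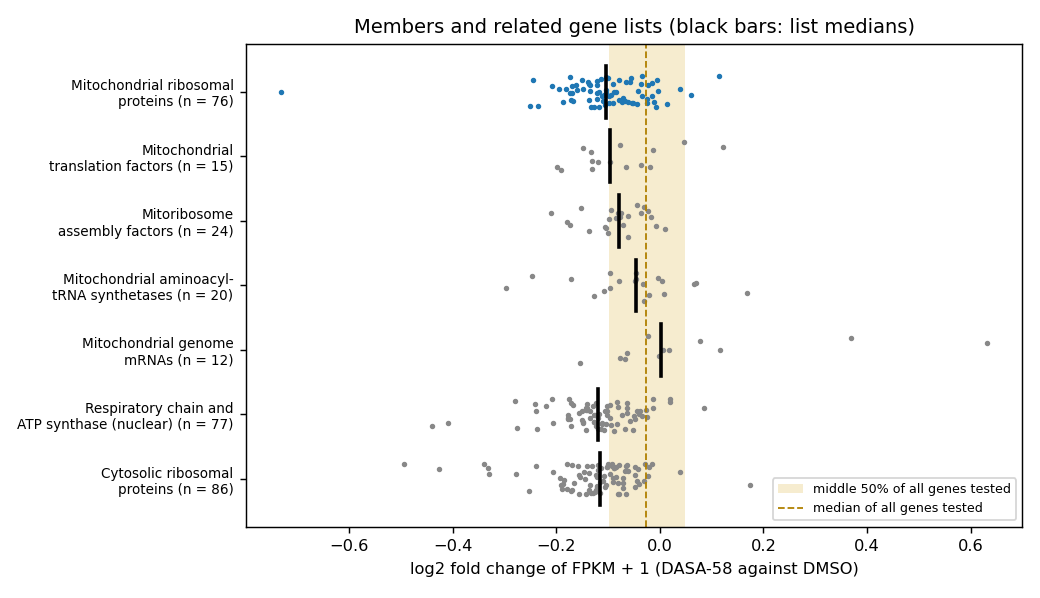
log2 fold changes of FPKM + 1 (DASA-58 against DMSO) of the tested genes in each list, with a black bar at the median of each list, a dashed line at the median of all genes tested and a shaded band over their middle 50%. The medians of the mitochondrial ribosomal, cytosolic ribosomal and respiratory chain lists lie at -0.10, -0.11 and -0.12, and the mRNAs of the mitochondrial genome at 0.00.

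Some markers of cell types differed between the groups. Of 10 osteoclast markers, 9 were tested and 9 fell, with a median log2 fold change of -0.87 and a summed level of 778 to 833 FPKM with DMSO and 449 to 467 with DASA-58. Of 8 macrophage markers 3 rose and 1 fell. Of 6 neutrophil markers 5 were tested and 3 fell (S100a8, S100a9 and Camp), with a sum of 119 to 126 FPKM with DMSO and 96.1 to 101 with DASA-58. The T cell, B cell and stromal lists had 1, 1 and 3 genes tested and 0 called by limma (at an unadjusted p under 0.05, 0, 0 and 1 were lower and 0 higher). Cd3d and Cd3e, which define T cells, were near 0 (0.0904 and 0.0266 FPKM with DMSO, 0.0198 and 0.0174 with DASA-58), and so was Klf1, the 1 erythroid marker listed (0.0584 and 0.150). Over all 6 T cell markers the sum was 5.57 to 6.30 FPKM with DMSO and 5.60 to 5.97 with DASA-58. Not every marker of that list was therefore near 0. The part of these cell types in the lower mitochondrial ribosomal protein levels was not tested.

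Many members lie close to another gene. Of the 77 members, 33 (42.9%) have a protein-coding gene that starts within 1000 bases on the other strand, where 1750 of 9868 protein-coding genes tested (17.7%) do. Of those partners 28 were tested, and 2 fell, 0 rose and 23 had a log2 fold change below 0. The 2 make 7.14%, near the 7.28% of all genes tested that fell, while 4.24% rose. The 23 make 82.1%, against 59.8% of all genes tested. The 2 that fell were Ndufs6, a subunit of complex I beside Mrpl36 (log2 fold change -0.24, limma adjusted p = 0.030), and Tmem63b, an ion channel beside Mrpl14 (-0.20, 0.025), while Mrpl36 and Mrpl14 themselves were at -0.06 and -0.07 and not called. Mrpl46 and Mrps11 are each other's partner, at -0.17 and -0.13, so both are members and are also counted among the partners tested.

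Exon bases were shared with another gene of the table in 30 members, in 4 on the same strand and in 26 on the opposite one. Whether strand was used in counting is not given in the sources used here, so the levels of these members are uncertain. The widest cases include Mrps25, with 69.8% of its exon bases opposite Nr2c2, and Mrps34, with 63.4% opposite Mapk8ip3 and 37.0% on the same strand as Nme3, which was not analysed here. Mrps34 had a log2 fold change of -0.25 and Mrps25 of -0.02.

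The promoters of the members were described from RefSeq windows of 250 bases before to 50 after the start, of which 68 of 77 members matched with 74 windows. The ETS core (CCGGAAG), bound by ETS factors such as GABP, occurred on either strand in 33.8% of the member windows, in 19.5% of the 10082 windows of tested protein-coding genes and in 8.86% of all 32851 windows. The YY1 core (AAGATGGCG) occurred in 10.8%, 3.43% and 1.40%, and the short NRF1 core (GCGCATGC), which lies inside a longer one, in 10.8%, 5.74% and 2.71%. The longer NRF1 core occurred in 4.05%, 2.33% and 0.971%. The E-box (CACGTG), the site of MYC and related factors, occurred in 9.46%, 10.4% and 7.15%, the CCAAT box (CCAAT) in 39.2%, 38.0% and 37.4%, and the TATA box (TATAAA) in 6.76%, 6.63% and 13.6%. Some genes had more than 1 window. Counted per gene, the E-box occurred in 7.35%, 12.3% and 8.09% and the CCAAT box in 38.2%, 43.3% and 41.1%. By that count the members were below both other sets for these motifs. The TATA box occurred in 7.35%, 8.04% and 15.7% of genes, and the ETS core in 36.8%, 22.8% and 9.93%. The median GC content of the 3 sets was 58.5%, 60.7% and 52.7%. A match is a run of letters and not a measured binding site.

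**Figure D5:**
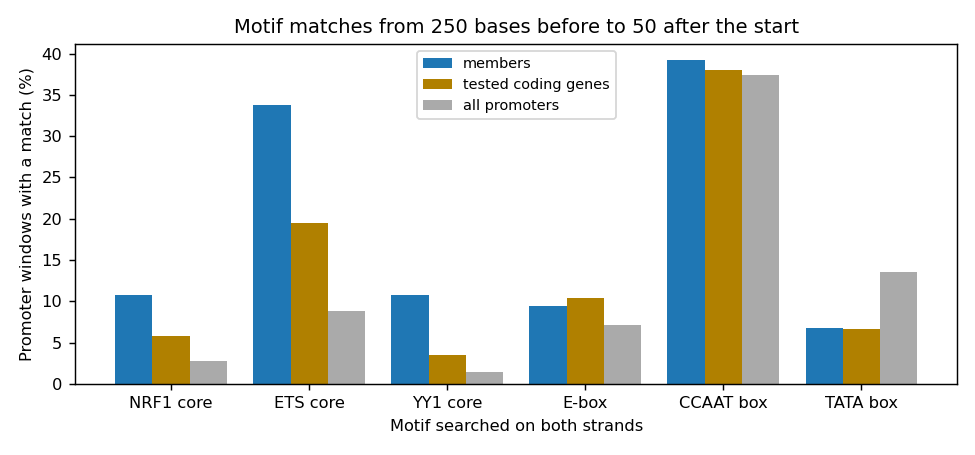
Share of promoter windows (percent) that hold each motif on either strand, for the members, for tested protein-coding genes and for all windows (NRF1 is the short core). The ETS core is found in 33.8%, 19.5% and 8.86% of windows and the CCAAT box in 39.2%, 38.0% and 37.4%. Counted per gene, the CCAAT box is found in 38.2%, 43.3% and 41.1%.

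The 29 ETS matches fell in 25 members at a median position of -17 relative to the start, and the 8 YY1 matches in 8 members at a median position of 19.5. The ETS matches of 5 members, at positions from -56 to -37, are shown as examples. Their printed bases lie inside the window before the start and touch no annotated exon of any gene. Other matches further upstream, as in Mrps16 (-74) and Mrpl51 (-90), are not printed. The core is in capitals as it reads on the gene's strand (CTTCCGG where it lies on the other one). None of the 5 was called, with log2 fold changes from -0.25 for Mrpl52 to -0.04 for Mrpl43.
Mrpl34 (chr8:71464872-71464912, plus strand): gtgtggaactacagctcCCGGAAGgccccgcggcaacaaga
Mrpl43 (chr19:45006475-45006515, minus strand): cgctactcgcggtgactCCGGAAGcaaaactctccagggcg
Mrpl52 (chr14:54426845-54426885, plus strand): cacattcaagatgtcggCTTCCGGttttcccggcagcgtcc
Mrpl22 (chr11:58171594-58171634, plus strand): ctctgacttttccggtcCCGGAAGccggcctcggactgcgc
Mrps27 (chr13:99344721-99344761, plus strand): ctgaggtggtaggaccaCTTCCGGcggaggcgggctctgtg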

How the data were processed

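The authors deposited 1 table of FPKM values for 6 libraries, normalized for gene length and library fragments. The submitters' processing notes name HISAT2 2.1.0, HTSeq 0.6.0 and build mm8 without roles. The annotation and the use of strand are not given in the sources used here. The lengths of GENCODE mouse release 21 (GRCm38), which also gave the coordinates, made FPKM values whole fragments (within 0.01) for 21340 genes (90.8%), and a fitted length did so for 1974 more, which gave the depth. Of the members, 70 had annotated and 7 fitted lengths. Symbols matched 23455 of 23504 identifiers. Library columns were assigned by sample titles. 4 pseudogene rows were left out, and Mrpl53 was not analysed here.

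DASA-58 was set against DMSO with limma 3.58.1 (R 4.3.3; lmFit, eBayes with a trend, no block) on log2(FPKM + 1), keeping genes that averaged 1 FPKM or more, with Benjamini-Hochberg adjustment over the 10965 genes tested. The study names Student's test for 2 groups in general and no test for the sequencing data, and limma was used because the values are FPKM. Fold changes on this scale understate the change of low genes. The code was tested on simulated data. Tables, exact tests and plots used Python 3.11.15, pandas 2.3.3, numpy 2.4.6, SciPy 1.17.1 and matplotlib 3.10.9. Alternatives changed the pseudocount, filter, scaling, variance model and block, used voom weights on recovered fragments, or left out 1 library. The short NRF1 core was added after seeing the data.

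Named were up to 12 called members in each direction, the highest and lowest of each subunit, members under the filter, members with a listed role, and up to 3 called genes of each related list in each direction with the 2 mitochondrial rRNAs. Members near the threshold, above 0, beside other genes or with a printed promoter, and Slc5a3, were named after their values were seen. The members and lists were chosen with earlier results of these data known. Protein features were not analysed here.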

Additional observations from a re-analysis of the deposited data

How the results depend on the processing

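The count of members that fell, 5 in the reported fit, was 1 with no filter, 11 with a mean of at least 5 FPKM, 9 with equal library totals, 2 with median centring, 3 with no trend in the variance, 2 with no variance shrinkage, 12 with voom weights on recovered fragments, and 1 to 5 without 1 library. Quantile normalization and the replicate block each gave 4. The count of members that rose was 0 under all 17 alternatives. The median log2 fold change of the members was -0.077 with median centring and -0.071 with quantile normalization. Over all genes, 798 fell and 465 rose in the reported fit, against 372 and 257 with no filter. The counts were 314 and 227 with no variance shrinkage, and 1327 and 742 with voom weights. With a mean of at least 5 FPKM, which left 71 members tested, 844 of all genes fell and 505 rose. With equal library totals 958 fell and 386 rose, so calls over all genes that fell also went up under these settings. With median centring 504 fell and 597 rose, and with quantile normalization 588 fell and 600 rose, so that under these 2 scalings more genes rose than fell. With no trend in the variance 515 fell. Without 1 library, 387 to 603 fell and 272 to 375 rose. The cause of these changes was not tested. Replicate numbers are shared by the groups, but deviations of same-numbered libraries correlated at -0.02, 0.02 and -0.02, which gave no sign of pairing. With 3 libraries a group, a weak pairing could be missed. With the replicate block, 4 members fell, 3 of them (Mrps6, Mrpl12 and Mrpl37) among the 5 of the reported fit, and Mrps28 was the other. A median of 694.5 fragments per member gives a counting error of 3.79%, near the median coefficient of variation between replicates of 4.64%, so changes of a few percent in a single member were not detectable with 3 libraries a group.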
